A study of Mus musculus with 8 samples.

Results

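AP-1 and the immediate early genes around it were followed as 10 genes of the 25413 in the deposited count table, chosen as the rows whose gene symbol is Fos, Fosl1, Fosl2, Jun, Junb, Jund, Egr1, Atf3, Zfp36 or Myc. All 10 were among the 13716 genes that passed the filter on low counts. Atf3 passed only through the EpH4-AS libraries, and in EpH4 it had 1 or 4 counts per library. The study sequenced polyadenylated RNA from mouse mammary epithelial cell lines grown as three-dimensional spheroids, in 4 groups of 2 libraries. EpH4 carries the genotype label WT, and EpH4-AS is labelled AS-transformed and described as its malignantly transformed counterpart. The 4 groups were untreated EpH4, EpH4 treated with PM2.5 (fine particulate air pollution), untreated EpH4-AS and PM2.5-treated EpH4-AS. The labels give neither the PM2.5 dose nor the exposure time, and they place all 8 libraries in 1 batch. Separate cultures for the 2 libraries of each group are not stated, so every p-value here rests on the spread of these libraries, and that spread may be technical. Each line is 1 cell line, so a difference between lines is a difference between these 2 lines.

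AP-1 is a dimeric transcription factor built from a JUN protein (Jun, Junb or Jund) and a FOS protein (Fos, Fosb, Fosl1 or Fosl2), or from a JUN protein and an ATF protein such as Atf3. JUN proteins can pair with each other, whereas FOS proteins need a JUN partner. Fos, Egr1 and Zfp36 are classical immediate early genes, switched on within minutes of a growth factor or stress signal through MAP kinases and serum response factor, and their mRNAs are short-lived. Fosl1 and Fosl2 respond more slowly and last longer, and Fosl1 is a common AP-1 subunit of invasive mammary tumour cells. Zfp36 (tristetraprolin) binds AU-rich mRNAs and directs their decay, and Myc drives growth and ribosome production.

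On GRCm39, the build of the deposited tables, the FOS genes are Fos (chr12:85520664-85524047, plus strand), Fosl1 (chr19:5497575-5505974, plus) and Fosl2 (chr5:32293145-32315186, plus). The JUN genes are Jun (chr4:94937271-94940459, minus), Junb (chr8:85701113-85705347, minus) and Jund (chr8:71151599-71153265, plus), and each of the 3 has a single exon. Atf3 (chr1:190902493-190950236, minus), Zfp36 (chr7:28076209-28079678, minus) and Myc (chr15:61857240-61862223, plus) have 4, 2 and 3 exons, and Egr1 has 2 exons. The 3 FOS genes each have 4 exons. Exon numbers come from the longest coding transcript of a mouse annotation on the older build GRCm38.

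RefSeq promoter sequences were matched for 7 of the 10 genes, and the 250 bases before the start are printed for the 4 in which a searched motif was found, a set that holds genes with opposite PM2.5 effects in EpH4-AS, Zfp36 and Fosl2. Coordinates are on GRCm38.p6, the build of that table, and capitals mark the motif matches. Fos is at chr12:85473640-85473889 (plus strand), Fosl2 at chr5:32136222-32136471 (plus), Atf3 at chr1:191183334-191183583 (minus) and Zfp36 at chr7:28379229-28379478 (minus). The sequences run 5′ to 3′ toward the start.
Fos: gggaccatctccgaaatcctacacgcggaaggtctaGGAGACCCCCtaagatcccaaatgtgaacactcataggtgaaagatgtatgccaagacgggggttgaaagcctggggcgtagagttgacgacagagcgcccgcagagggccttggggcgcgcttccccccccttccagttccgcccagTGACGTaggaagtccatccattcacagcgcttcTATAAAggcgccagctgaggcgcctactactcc
Atf3: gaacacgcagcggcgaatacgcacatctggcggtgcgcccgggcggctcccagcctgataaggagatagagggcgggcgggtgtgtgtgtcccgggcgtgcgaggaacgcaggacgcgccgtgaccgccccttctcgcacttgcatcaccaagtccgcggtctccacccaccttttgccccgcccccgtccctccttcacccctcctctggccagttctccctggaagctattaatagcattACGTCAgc
Zfp36: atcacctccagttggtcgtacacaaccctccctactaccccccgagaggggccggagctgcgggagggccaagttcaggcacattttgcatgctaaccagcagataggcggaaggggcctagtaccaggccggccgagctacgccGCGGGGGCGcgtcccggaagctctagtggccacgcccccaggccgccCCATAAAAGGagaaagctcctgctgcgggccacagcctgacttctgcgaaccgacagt
Fosl2: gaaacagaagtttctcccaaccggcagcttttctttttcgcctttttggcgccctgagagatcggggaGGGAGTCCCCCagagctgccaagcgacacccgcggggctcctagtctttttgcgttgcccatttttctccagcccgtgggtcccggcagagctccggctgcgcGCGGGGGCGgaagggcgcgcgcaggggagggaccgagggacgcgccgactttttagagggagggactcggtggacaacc

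The motifs were searched on both strands and are counted back from the start, where -1 is the last base printed. The cAMP response element core TGACGT, the first 6 letters of the octamer TGACGTCA bound by CREB and ATF proteins, stood at -66 to -61 in Fos and, as the other strand, at -8 to -3 in Atf3. It was in 6.47% of the 32851 promoters of the table. Zfp36 held a CArG box, the site of serum response factor, at -58 to -49, a motif in 1.47% of all promoters. The EGR site GCGNGGGCG was in 4.70% of promoters and stood at -105 to -97 in Zfp36 and at -79 to -71 in Fosl2. The NF-kB consensus was in 3.90% of promoters and was found in Fos at -214 to -205 and in Fosl2 at -182 to -172, where 2 overlapping matches are shown as 1 stretch. A TATA box, TATAAA or TATATA, stood at -33 to -28 in Fos and was in 15.6% of promoters. The AP-1 heptamer TGANTCA (6.75% of promoters), the octamer TGACGTCA (1.55%) and the MYC E-box CACGTG (6.02%) were in none of the 7 windows. The TGACGT core and the TATA box were searched after the sequences had been seen. These matches are letters in a window and no test of binding.

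Counts per library ranged from 15393256 to 27765982, and the 4 EpH4-AS libraries were the 4 shallowest. The lines also differed in the make-up of their reads. Of all reads over genes, 11.8 ± 0.706% fell outside exons in untreated EpH4 and 11.96 ± 0.741% in exposed EpH4, whereas EpH4-AS gave 3.47 ± 0.107% untreated and 3.51 ± 0.118% exposed (SD, n = 2). Mitochondrially encoded genes took 2.47 ± 0.364% and 4.63 ± 0.563% of the counts in untreated and exposed EpH4, and in EpH4-AS the shares were 0.233 ± 0.0193% and 0.286 ± 0.0229% (SD, n = 2). The mammary epithelial label was checked against 12 epithelial markers, and they were nearly absent. Their summed level was 1.45 to 2.72 CPM (counts scaled to library size) over the 8 libraries, and between 3 and 6 of the 12 had no count in a group. Krt18, a simple-epithelium keratin, was at 0 counts in untreated EpH4 and in both EpH4-AS groups, and Cdh1 (E-cadherin) was at 0.134 CPM in untreated EpH4. The 10 fibroblast markers summed to 4086 to 5115 CPM, led by Vim in every group. Vim averaged 2068 CPM in untreated EpH4 and 3653 in untreated EpH4-AS. Thy1 and Fap averaged at most 0.176 and 0.215 CPM in any group. Of the 8 fibroblast markers tested, 3 were higher and 5 lower in untreated EpH4-AS than in untreated EpH4. With PM2.5, 1 fell in EpH4 and 3 fell in EpH4-AS. Col1a2, a collagen chain, averaged 1067 CPM in untreated EpH4 and 34.4 in untreated EpH4-AS, and Pdgfra, a growth factor receptor, 362 and 59.2. Dcn (decorin) averaged 1124 CPM in untreated EpH4, 392 in untreated EpH4-AS and 271 after PM2.5 there. Col3a1 differed the other way, at 0.749 CPM in untreated EpH4 and 45.1 in untreated EpH4-AS, and was at 11.6 there with PM2.5. Lum was also higher in untreated EpH4-AS, at 3.21 CPM against 0.589. Of the other lists, basal markers summed to 2.57 to 9.78 CPM and endothelial markers to 0.253 to 1.09. Macrophage and leukocyte markers, almost all Cd68, summed to 175 to 225 CPM in EpH4 and 38.8 to 42.2 in EpH4-AS, and adipocyte markers to 0.716 to 1.32 and 57.2 to 66.2. Of the 2 adipocyte markers tested, 1 passed in EpH4-AS, Fabp4, which averaged 15.4 CPM untreated and 5.33 with PM2.5. Cidec, which held most of the adipocyte sum there, averaged 50.3 and 53.1 CPM and did not pass. The part of these marker shifts in the results was not tested. In bulk RNA, fewer cells of a kind and less RNA per cell cannot be told apart.

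The levels of the 10 genes set per length, as the authors' RPKM (reads scaled to exon length and library size), were dominated by Fosl1, the JUN genes, Fosl2 and Myc. In untreated EpH4 the order was Fosl1 at 98.8 ± 5.98 RPKM, Junb at 82.0 ± 3.88, Jun at 56.3 ± 3.20, Jund at 55.7 ± 3.66, Fosl2 at 54.4 ± 0.322 and Myc at 50.5 ± 1.07 (SD, n = 2). Jun, Jund and Fosl2 did not differ beyond their spread. Zfp36 followed at 7.79 ± 0.0312 RPKM and Fos at 2.08 ± 0.303, while Egr1 and Atf3 stood at 0.0943 ± 0.0104 and 0.0146 ± 0.000685. In untreated EpH4-AS Myc came first at 126 ± 0.602 RPKM, followed by Fosl1 at 99.0 ± 4.90, Jund at 89.6 ± 0.999 and Junb at 85.8 ± 1.06. Egr1 stood at 63.0 ± 2.37 RPKM there, level with Jun at 62.4 ± 0.716, and Atf3 at 7.03 ± 0.511. Fos, the founding member of the family, was at 1.46 to 2.58 RPKM as group means in all 4 groups, under Fosl1, Fosl2 and the 3 JUN genes in each. In the 13716 genes tested, Fosl1 ranked 404th by RPKM in untreated EpH4 and Fos 9372nd.

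**Figure D1:**
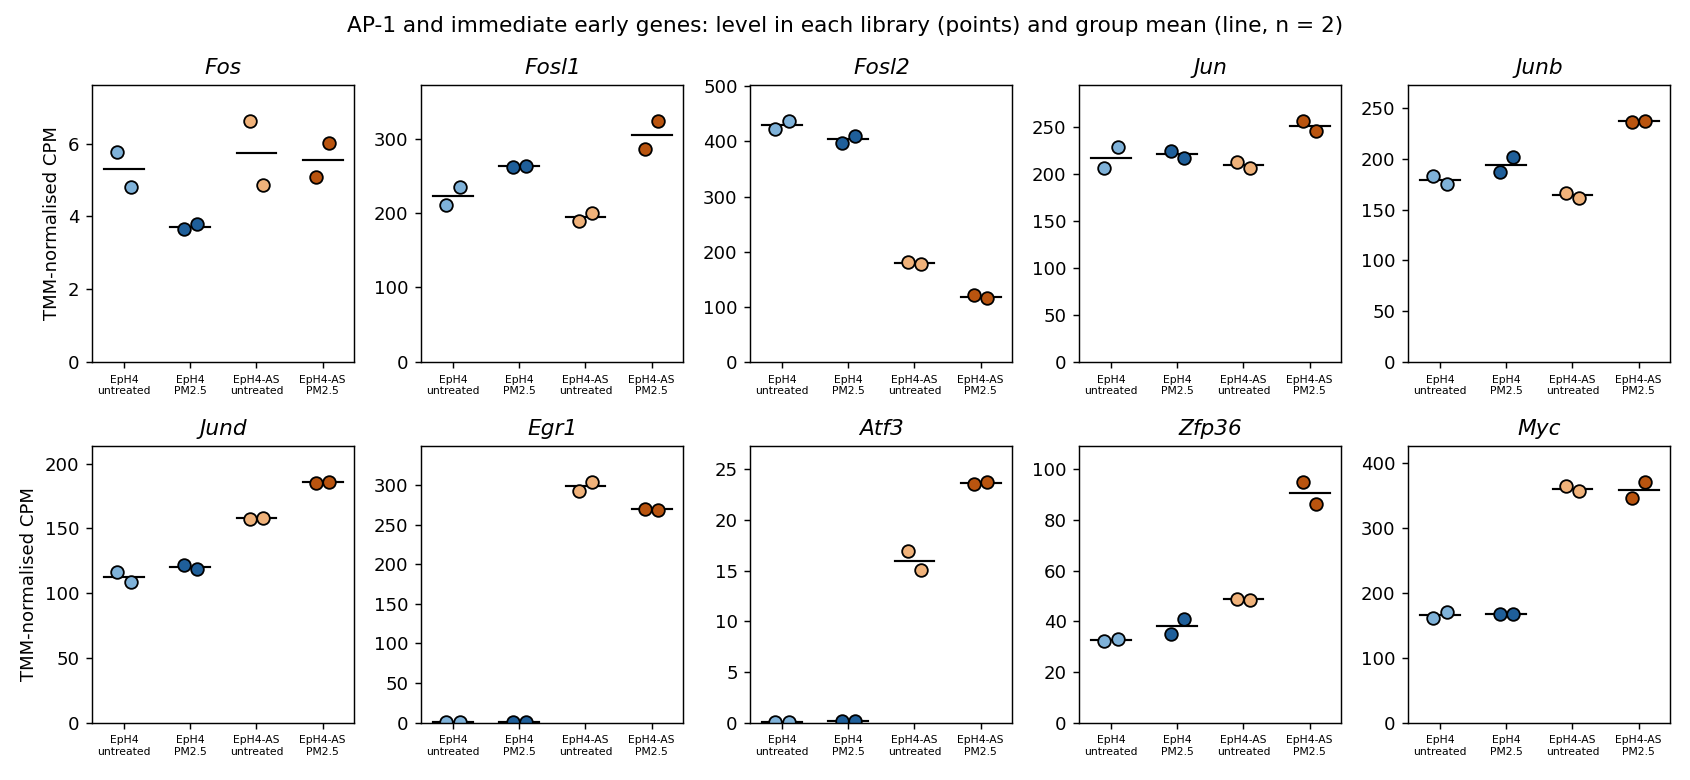
Level of each of the 10 genes in every library, as CPM normalised by the trimmed mean of M values (y axis, starting at 0 in each panel), for the 4 groups on the x axis; points are libraries and the line is the mean of 2. Fosl2 fell in steps from 437 CPM in EpH4 to 116 in EpH4-AS with PM2.5, Zfp36 was highest in EpH4-AS with PM2.5, and Egr1 and Atf3 were near 0 in both EpH4 groups.

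The first question of the design was what PM2.5 does in each line. In EpH4, PM2.5 changed 2 of the 10 genes by edgeR's quasi-likelihood test (Benjamini-Hochberg adjusted p under 0.05 over all genes), Fosl1 upward and Fos downward. In that comparison 27.2% of all genes tested passed, 14.3% higher and 12.9% lower, so the 10 genes were called at about the rate of all genes. In EpH4-AS, 7 of the 10 passed: Fosl1, Jun, Junb, Jund, Atf3 and Zfp36 rose and Fosl2 fell. There 11.1% of all genes tested passed, 6.39% higher and 4.75% lower. The median log2 fold change of the 10 genes was 0.10 in EpH4 and 0.25 in EpH4-AS, against 0.00 over all genes in both. With library totals in place of the trimmed mean of M values, the calls over all genes in EpH4-AS were 715 higher and 916 lower instead of 877 higher and 652 lower, while the 7 genes kept their direction. Limma-trend on log2(RPKM + 1) gave 698 higher and 866 lower.

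**Figure D2:**
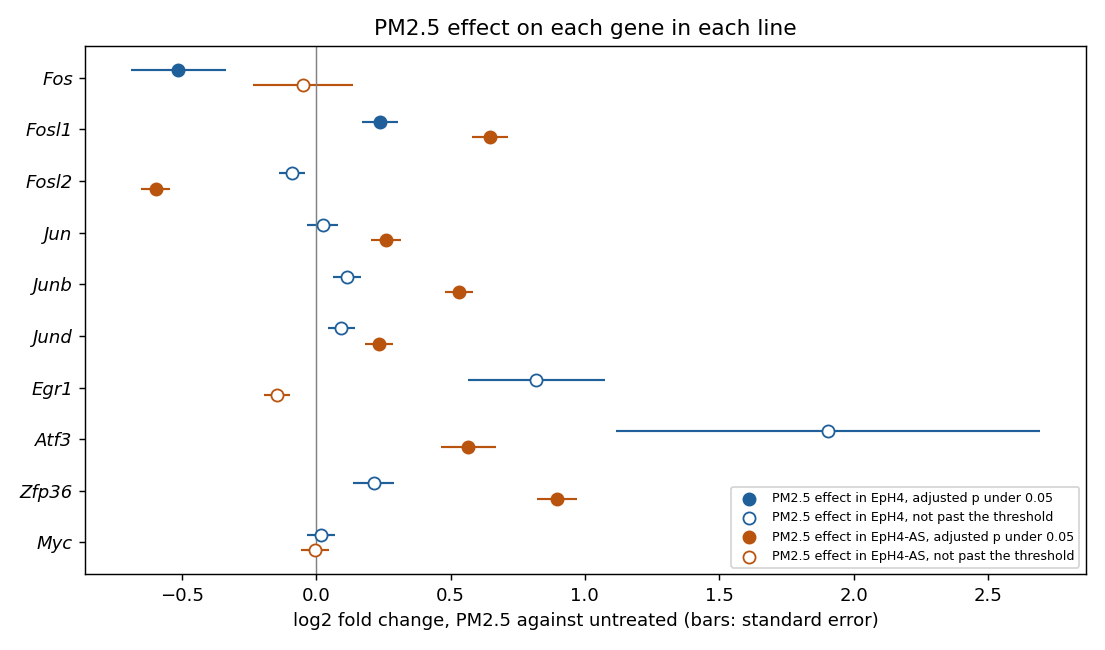
PM2.5 effect on each gene as log2 fold change against untreated libraries of the same line (x axis; bars are standard errors), with EpH4 in blue and EpH4-AS in orange; filled points passed the adjusted p threshold of 0.05. Zfp36, Fosl1 and Junb lie to the right of 0 and Fosl2 to the left in EpH4-AS, and the wide bar of Atf3 in EpH4 rests on 2 and 8 counts.

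Among the FOS genes, Fosl1 was at 211 and 235 CPM in untreated EpH4, at 262 and 263 with PM2.5, in untreated EpH4-AS at 189 and 200.3, and in exposed EpH4-AS at 286 and 323. Both exposed groups stood above their untreated groups with no overlap, and the exposed EpH4-AS libraries were the highest of the 8. The edgeR log2 fold change was 0.24 ± 0.07 in EpH4 (SE, adjusted p = 0.0155) and 0.65 ± 0.07 in EpH4-AS (SE, adjusted p = 3.37e-05). The difference between the lines was itself 0.41 ± 0.09 on the log2 scale (edgeR, adjusted p = 0.0102). The call in EpH4 was lost with only the 4 EpH4 libraries in the fit, without untreated replicate 1 and without PM2.5 replicate 2. The difference between lines was lost without EpH4-AS untreated replicate 1 and without EpH4-AS PM2.5 replicate 2. Over all alternatives the log2 fold change in EpH4 spanned 0.16 to 0.32, and the difference between lines 0.32 to 0.52.

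Fosl1 shares part of its locus with Ccdc85b on the opposite strand, with 2767 bases of the gene spans in common. On GRCm38, 1163 of the bases in common were in exons of both genes, against a longest coding Fosl1 transcript of 1864 bases. The library kit keeps strand, but the strand setting of the counting is not given in the sources used here, so reads of the pair cannot be told apart. Ccdc85b was at 464 and 453 CPM in untreated EpH4-AS and at 707 and 711 with PM2.5, a log2 fold change of 0.63 ± 0.06 (edgeR, adjusted p = 3.23e-05), close to that of Fosl1. In EpH4 Ccdc85b gave -0.09 ± 0.07 (edgeR, adjusted p = 0.357) where Fosl1 rose, and untreated EpH4-AS stood above untreated EpH4 by 1.43 ± 0.07 in Ccdc85b where Fosl1 was lower. What Ccdc85b reads add to the Fosl1 counts was not tested.

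Fosl2 moved the other way. It was at 423 and 437 CPM in untreated EpH4, 398 and 410.4 when exposed, then 181 and 177 in EpH4-AS without PM2.5 and 121 and 116 after exposure. The 4 groups did not overlap, and the 2 EpH4-AS groups lay far below the 2 EpH4 groups. PM2.5 lowered Fosl2 in EpH4-AS by a log2 fold change of -0.60 ± 0.05 (edgeR, adjusted p = 7.56e-06), and in EpH4 the value was -0.09 ± 0.05 (adjusted p = 0.196). The difference between the lines was -0.51 ± 0.07 (edgeR, adjusted p = 0.000446), and it passed under every alternative tried.

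Fos itself was scarce, with 77 to 159 counts per library. It was at 5.78 and 4.81 CPM in untreated EpH4 and at 3.66 and 3.78 with PM2.5, so that both exposed libraries were lower. The log2 fold change was -0.51 ± 0.18 (edgeR, adjusted p = 0.0441), and this call was lost with DESeq2 (0.182), with a replicate block (0.0614), with limma-trend (0.0875), with only the 4 EpH4 libraries in the fit (0.0576) and without untreated replicate 1 (0.197), PM2.5 replicate 1 (0.139) or PM2.5 replicate 2 (0.124). In EpH4-AS Fos was at 6.62 and 4.87 CPM untreated and at 5.08 and 6.03 with PM2.5, overlapping ranges with a log2 fold change of -0.05 ± 0.19 (edgeR, adjusted p = 0.914).

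The 3 JUN genes rose together in EpH4-AS, by unequal amounts. Junb was at 167 and 161 CPM in untreated EpH4-AS and at 237 and 237 with PM2.5, against 183 and 176 in untreated EpH4 and 187 and 202 with PM2.5. The exposed EpH4-AS libraries were the highest and the untreated EpH4-AS libraries the lowest of the 8. Junb gave a log2 fold change of 0.53 ± 0.05 in EpH4-AS (edgeR, adjusted p = 2.48e-05) and 0.11 ± 0.05 in EpH4 (adjusted p = 0.123), and the difference between the lines was 0.42 ± 0.07 (adjusted p = 0.00226). The end of Prdx2 overlaps Junb on the opposite strand by 351 bases of the gene spans, and by 173 bases of exons on GRCm38. Prdx2 gave 0.18 ± 0.07 in EpH4-AS (edgeR, adjusted p = 0.107) and 0.35 ± 0.07 in EpH4 (adjusted p = 0.00143), the reverse order of Junb.

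Jun was at 213 and 207 CPM in untreated EpH4-AS and at 257 and 246 with PM2.5, with no overlap. In EpH4 it was at 206 and 229 CPM untreated and at 224 and 218 with PM2.5, with overlapping ranges. The log2 fold change was 0.26 ± 0.06 in EpH4-AS (edgeR, adjusted p = 0.0105) and 0.02 ± 0.06 in EpH4 (adjusted p = 0.806), and the difference between the lines, 0.24 ± 0.08, missed the threshold (adjusted p = 0.0668). That difference passed with no filter (adjusted p = 0.0198), without EpH4 untreated replicate 1 (0.00773) and without mitochondrially encoded genes (0.0470). Jund, the JUN gene usually present in resting cells, was at 158 and 158 CPM in untreated EpH4-AS and at 185 and 186 with PM2.5. In EpH4 it was at 116 and 108 CPM untreated and 122 and 118 with PM2.5, below every EpH4-AS library. Its log2 fold change was 0.23 ± 0.05 in EpH4-AS (edgeR, adjusted p = 0.0102) and 0.09 ± 0.05 in EpH4 (adjusted p = 0.201). The EpH4-AS calls of both genes were lost when 1 library was left out. For Jun this was EpH4-AS untreated replicate 1 (0.0827), untreated replicate 2 (0.131) or PM2.5 replicate 1 (0.0826). For Jund it was EpH4-AS untreated replicate 1 (0.0970), untreated replicate 2 (0.0974) or PM2.5 replicate 2 (0.0701).

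The make-up of the FOS family by RPKM shifted with both line and exposure. Fosl1 made up 63.0 ± 1.44% of the summed FOS family RPKM in untreated EpH4, 68.4 ± 0.433% after exposure, 76.8 ± 1.24% in EpH4-AS before it and 88.1 ± 1.02% afterwards (SD, n = 2). Fosl2 made up 34.7 ± 1.10%, 30.0 ± 0.421%, 20.1 ± 0.746% and 9.78 ± 0.994% in the same order. The ranges of the 4 groups did not overlap for either gene. Fos contributed 0.857 to 2.01% and Fosb 0.698 to 1.07% as group means. In the JUN family Junb held 42.2 ± 1.06% and 43.2 ± 1.78% in the EpH4 groups and 36.1 ± 0.327% and 40.8 ± 0.293% in the EpH4-AS groups, and Jund 28.7 ± 1.24%, 28.9 ± 0.865%, 37.7 ± 0.543% and 34.6 ± 0.313% (SD, n = 2). The summed JUN RPKM was 194 ± 4.34, 206 ± 4.34, 238 ± 0.774 and 298 ± 0.0486 in the same order of groups, and the summed FOS RPKM 157 ± 5.90, 171 ± 3.11, 129 ± 4.31 and 172 ± 13.8. These shares and sums are descriptions of mRNA and were given no test. The limit from the overlap of Fosl1 with Ccdc85b applies to them too.

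**Figure D3:**
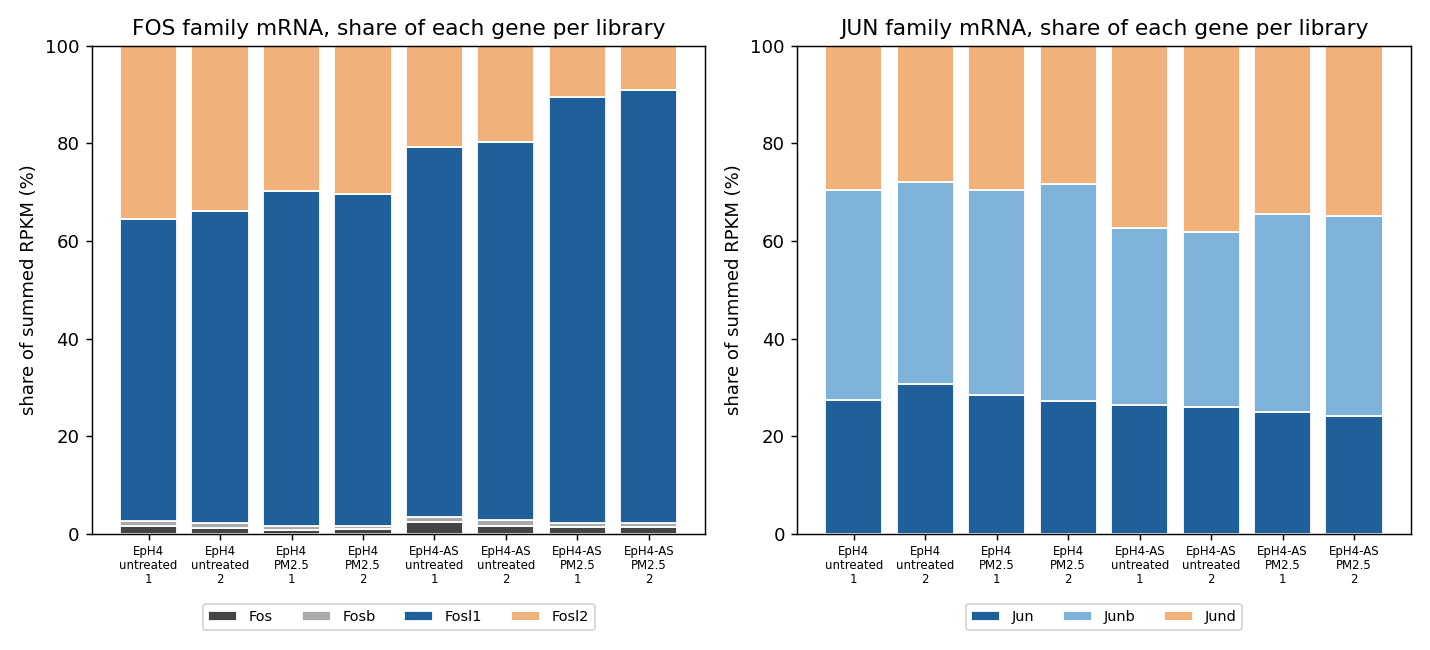
Share of each gene in the summed RPKM of its family (y axis, percent), for the FOS family on the left and the JUN family on the right, 1 bar per library. Fosl1 fills 61.9 to 68.8% of the FOS bar in the EpH4 libraries and 75.9 to 88.8% in the EpH4-AS libraries, with Fosl2 shrinking in step.

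Zfp36 showed the largest PM2.5 log2 fold change of the 10 genes in EpH4-AS. It was at 48.7 and 48.6 CPM in untreated EpH4-AS and at 95.1 and 86.3 with PM2.5, and at 32.4 and 33.0 in untreated EpH4 and 35.1 and 40.9 with PM2.5. The groups did not overlap, and each EpH4-AS library was above each EpH4 library. The log2 fold change was 0.90 ± 0.07 in EpH4-AS (edgeR, adjusted p = 4.63e-06) and 0.21 ± 0.08 in EpH4 (adjusted p = 0.0518), and the difference between the lines was 0.68 ± 0.11 (adjusted p = 0.000885). In EpH4 Zfp36 passed with library totals (0.0443), with no filter (0.0382) and without PM2.5 replicate 1 (0.0103). The difference between lines passed under every alternative tried.

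Atf3, a stress-induced bZIP repressor and activator, was nearly unread in EpH4 with 1 and 1 counts untreated and 4 and 4 with PM2.5. In EpH4-AS it was at 16.9 and 15.1 CPM untreated and at 23.6 and 23.8 with PM2.5, with no overlap. PM2.5 raised it there by 0.57 ± 0.10 on the log2 scale (edgeR, adjusted p = 0.00307), a call lost without EpH4-AS untreated replicate 2 (0.0644). In EpH4 the ratio of PM2.5 to untreated counts was 4.16 with a 95% counting interval of 0.831 to 40.3, and the edgeR value did not pass (adjusted p = 0.119). The intervals come from counts pooled over the 2 libraries of a group, so they cover counting error only and leave out the spread between libraries. The reads also carry no molecular identifiers.

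Egr1, a zinc finger factor of the early growth response, was at 0.545 and 0.477 CPM in untreated EpH4, 0.914 and 0.904 after exposure, 292 and 304 in EpH4-AS without PM2.5 and 270.5 and 269 after exposure. Exposed libraries were higher in EpH4 and lower in EpH4-AS, without overlap in either line. Neither change passed, with log2 fold changes of 0.82 ± 0.25 in EpH4 (edgeR, adjusted p = 0.0566) and -0.15 ± 0.05 in EpH4-AS (adjusted p = 0.0653). The latter passed with library totals (0.0317) and with only the 4 EpH4-AS libraries in the fit (0.00939). The difference between the lines was -0.96 ± 0.26 (edgeR, adjusted p = 0.0379), was lost with DESeq2 (0.0567) and whenever any 1 library was left out (0.0594 to 0.149), and rests on 27 and 46 counts in EpH4. Myc was at 364 and 356 CPM in untreated EpH4-AS and at 347 and 371 with PM2.5, and at 162 and 170.4 in untreated EpH4 and 168 and 168 with PM2.5. Its ranges overlapped within each line, and the log2 fold changes were 0.02 ± 0.05 in EpH4 (edgeR, adjusted p = 0.856) and -0.00 ± 0.05 in EpH4-AS (adjusted p = 0.985).

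The design also asked how the PM2.5 effect depends on the line. By the interaction term, 5 of the 10 genes differed, against 14.1% of all genes tested (7.6% with a higher effect in EpH4-AS and 6.49% with a lower one). Fosl1, Junb and Zfp36 had a higher effect in EpH4-AS, and Fosl2 and Egr1 a lower one. Jun, Jund, Fos, Atf3 and Myc did not pass by edgeR, which does not show that they responded alike. Jun passed under the 3 alternatives given above. For Atf3 the edgeR value was -1.34 ± 0.79 (adjusted p = 0.359), and limma-trend passed with the opposite sign (0.42, adjusted p = 0.0242). Limma-trend adds 1 to RPKM before the log. In EpH4 Atf3 was far below that 1, at 0.0146 RPKM untreated and 0.0609 with PM2.5. The median interaction log2 value of the 10 genes was 0.19, against 0.01 over all genes. With library totals the interaction calls over all genes were 838 higher and 1100 lower instead of 1042 and 890, and the same 5 genes passed.

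The lines were compared untreated and exposed, to ask what differs with malignant transformation. Nearly all genes differed: 89.2% of genes tested passed without PM2.5 (43.6% higher and 45.7% lower in EpH4-AS) and 89% with it (43.5% higher and 45.5% lower). Without PM2.5, 8 of the 10 genes passed, 5 higher and 3 lower, and with PM2.5 all 10 passed, 9 higher and Fosl2 lower, shares that lie near those of all genes in either direction together. Atf3 entered the test only through the EpH4-AS libraries, so its line call was fixed by the filter and these counts are a description. Without it, 7 of 9 passed untreated, 4 higher and 3 lower, and 9 of 9 with PM2.5, 8 of them higher. The median log2 difference of the 10 genes was 0.30 without PM2.5 and 0.60 with it, against -0.05 and -0.04 over all genes. With limma-trend on RPKM the medians over all genes were 0.10 and 0.09. The untreated libraries enter both the exposure and the line comparisons, so these are not independent of each other.

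Egr1 was nearly unread in EpH4. Untreated EpH4-AS held 9668 Egr1 counts against 27 in EpH4, a ratio of 582 after scaling with a 95% counting interval of 399 to 883, and with PM2.5 the ratio was 297 (222 to 405). The edgeR log2 differences were 9.17 ± 0.10 (adjusted p = 4.60e-17) and 8.20 ± 0.09 (adjusted p = 5.35e-17). Atf3, whose line difference is a description only, held 519 counts against 2 untreated, a ratio of 421 (116 to 3489), and 842 against 8 with PM2.5, a ratio of 150 (75.6 to 348). Myc was higher in EpH4-AS by 1.12 ± 0.05 untreated (edgeR, adjusted p = 3.00e-11) and by 1.09 ± 0.05 with PM2.5 (adjusted p = 3.87e-11), in every library.

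Jund and Zfp36 were higher in EpH4-AS in both comparisons. The log2 differences were 0.49 ± 0.05 untreated (edgeR, adjusted p = 3.80e-07) and 0.63 ± 0.05 with PM2.5 (adjusted p = 1.82e-08) for Jund, and 0.57 ± 0.08 (adjusted p = 6.18e-06) and 1.26 ± 0.07 (adjusted p = 3.46e-10) for Zfp36. Fosl2 was lower by -1.27 ± 0.05 untreated (edgeR, adjusted p = 4.24e-12) and by -1.77 ± 0.05 with PM2.5 (adjusted p = 1.41e-13). For Fosl1 and Junb the order of the lines turned with exposure. Fosl1 was lower in untreated EpH4-AS by -0.19 ± 0.07 (edgeR, adjusted p = 0.0134) and higher with PM2.5 by 0.21 ± 0.07 (adjusted p = 0.00675). Junb was lower untreated by -0.13 ± 0.05 (edgeR, adjusted p = 0.0316) and higher with PM2.5 by 0.29 ± 0.05 (adjusted p = 0.00012).

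The untreated differences of Fosl1 and Junb depended on scaling. With library totals neither passed (adjusted p = 0.0585 and 0.170), and limma-trend on RPKM gave 0.00 and 0.07, at or above 0. Leaving out EpH4 untreated replicate 2 (0.165) or EpH4-AS untreated replicate 1 (0.108) also lost the call of Fosl1. Leaving out EpH4 untreated replicate 1 (0.123), EpH4-AS untreated replicate 1 (0.0519) or replicate 2 (0.158), or using DESeq2 (0.0569), lost that of Junb. Fos and Jun did not pass between the untreated lines (edgeR, adjusted p = 0.535 and 0.406). For Jun the direction turned with the setting: its difference was -0.05 by edgeR, -0.13 without EpH4 untreated replicate 1, which passed (adjusted p = 0.0493), and 0.15 by limma-trend, which also passed (adjusted p = 0.0172). With PM2.5 they were higher in EpH4-AS by 0.58 ± 0.19 (edgeR, adjusted p = 0.00892) and 0.19 ± 0.06 (adjusted p = 0.0067). The calls with PM2.5 were lost without EpH4-AS PM2.5 replicate 2 for Fos (0.0884) and for Fosl1 (0.120).

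Reads outside exons gave a second view of the same genes, from gene-wide read numbers deposited beside the exon counts. In Fosl1, 25.5 and 28.8% of gene reads lay outside exons in untreated EpH4 and 29.4 and 26.3% after exposure, while EpH4-AS gave 1.47 and 1.74% untreated and 1.43 and 1.80% exposed. The lines were far apart and exposure left the ranges overlapping in both. Over genes with at least 50 gene reads the median share was 13.3 to 15.1% in the EpH4 libraries and 2.23 to 2.35% in the EpH4-AS libraries. Fosl1 thus lay above the median in EpH4, between percentiles 75.5 and 77.6, and below it in EpH4-AS, between percentiles 33.2 and 42.1. What the overlap with Ccdc85b adds to these Fosl1 shares was not tested.

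Fosl2 had 5.68 ± 0.0585% of its gene reads outside exons in untreated EpH4, 7.83 ± 0.565% after exposure, and in the EpH4-AS groups 1.59 ± 0.0285% and 1.57 ± 0.135% (SD, n = 2). Myc had 7.30 ± 0.300% and 6.73 ± 0.521% in EpH4 and 3.01 ± 0.311% and 3.00 ± 0.129% in EpH4-AS. Atf3 in EpH4 was made up mostly of such reads, with 21 of 23 gene reads untreated and 35 of 43 with PM2.5 outside exons, whereas in EpH4-AS the share was 1.87 ± 0.310% and 1.65 ± 0.417%. Jun, Junb and Zfp36 stayed at or under 1.42% in every library, and Jund was at 1.67 to 2.29% in EpH4 and at 0.558 to 1.06% in EpH4-AS. The longest coding transcripts of Jun, Junb and Jund have a single exon. Zfp36, with 2 exons, had group means of 0.168 and 0.209% in EpH4 and 0% in both EpH4-AS groups. The part of gene structure in these low shares was not tested. The share over all genes differed between the lines too, and its part in the line differences of these genes was not tested.

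**Figure D4:**
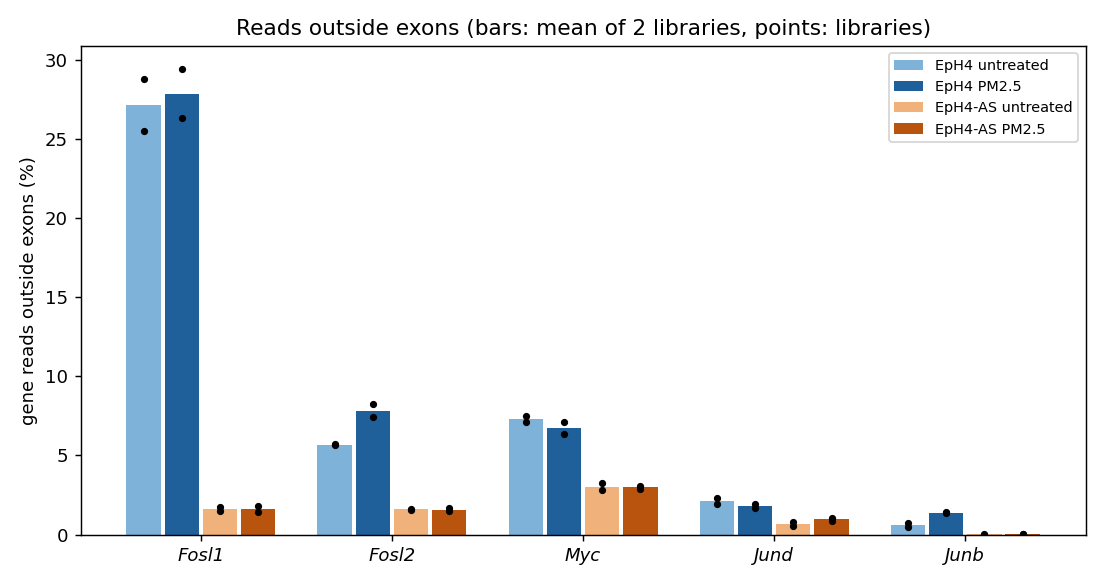
Share of gene reads outside exons (y axis, percent) for 5 of the genes in the 4 groups; bars are means of 2 libraries and points the libraries. Fosl1 stands at 27.1 and 27.8% in the EpH4 groups and at 1.60 and 1.61% in the EpH4-AS groups. Junb and Jund have a single exon each.

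The genes whose pattern over the 8 libraries was most like that of a member were found by the root mean square difference of centred log2 CPM among 10837 genes. For Zfp36 the nearest was Nfkb2 at 0.10, followed by Cdc14a at 0.16. Nfkb2 averaged 156 CPM in untreated EpH4, 194 in exposed EpH4, and 260.3 and 432 in the corresponding EpH4-AS groups. For Fosl1 the nearest was Epdr1 at 0.09, for Fos Iftap and Paip2 stood at 0.13 each, for Atf3 Septin3 at 0.19 and Gypc at 0.27, and for Myc the nearest was Wdr48 at 0.02. With most genes differing between lines, likeness of this kind is a description only.

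Genes around AP-1 were read as lists of family members, targets and partners, beside the rates over all genes of 27.2% in EpH4 and 11.1% in EpH4-AS and a median of 0.00 in both. Few of the other AP-1 family genes passed (medians -0.11 in EpH4 and 0.13 in EpH4-AS): of 10 tested, 1 rose and 2 fell with PM2.5 in EpH4 and none passed by edgeR in EpH4-AS. There 3 had an unadjusted p under 0.05, DESeq2 called 0 and limma-trend 1, and 2 passed with only the 4 EpH4-AS libraries in the fit. Fosb, the fourth FOS gene, fell in EpH4 with a log2 fold change of -0.46 ± 0.13 (edgeR, adjusted p = 0.0153), from 7.71 and 7.24 CPM to 5.41 and 5.47. Mafg, a small MAF partner, rose there by 0.21 ± 0.06 (adjusted p = 0.0143), and Atf7 fell, at -0.16 ± 0.06 (adjusted p = 0.0415).

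Other immediate early genes responded mainly upward in EpH4-AS. Of 26 tested, 7 rose and 3 fell in EpH4, and 10 rose and 1 fell in EpH4-AS, with medians of 0.04 and 0.09. Ier3, an anti-apoptotic early response gene, was at 156 and 157 CPM in untreated EpH4-AS and at 514 and 554 with PM2.5, a log2 fold change of 1.77 ± 0.06 (edgeR, adjusted p = 6.60e-10). In EpH4 it was at 605 and 629.7 CPM untreated and 605 and 565 with PM2.5, so the exposed EpH4-AS libraries came close to the EpH4 level. Nfkbiz (an atypical IkB protein) and Gadd45a (a growth arrest and DNA damage gene) rose in EpH4-AS by 1.30 ± 0.09 (edgeR, adjusted p = 5.56e-07) and 0.97 ± 0.09 (adjusted p = 7.56e-06), with 0.12 ± 0.06 and -0.16 ± 0.08 in EpH4, which did not pass. Sgk1, a serum- and glucocorticoid-induced kinase, rose in EpH4 by 0.43 ± 0.07 (edgeR, adjusted p = 0.000658) and fell in EpH4-AS, at -0.73 ± 0.08 (adjusted p = 6.58e-05). The interaction passed for all 4 of these genes (edgeR, adjusted p = 1.31e-08 to 6.89e-05). They were named for their PM2.5 effect in the same fit, so these passes are a description only. Over the 26 tested, the interaction called 6 higher and 1 lower, against 7.6% and 6.49% of all genes.

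Known AP-1 targets were called more often upward than downward in both lines. Of 25 tested, 9 rose and 2 fell in EpH4 and 13 rose and 1 fell in EpH4-AS, with medians of 0.13 and 0.32. Hmox1, the heme-degrading enzyme, was at 928 and 1005 CPM in untreated EpH4 and 2196 and 1842 with PM2.5, and at 1236 and 1216 in untreated EpH4-AS and 3069.9 and 3253 with PM2.5. It rose by 1.06 ± 0.08 in EpH4 (edgeR, adjusted p = 1.17e-06) and 1.37 ± 0.08 in EpH4-AS (adjusted p = 9.66e-08). Lif, a cytokine of the IL-6 family, rose in EpH4-AS by 1.21 ± 0.08 (edgeR, adjusted p = 6.76e-07) with 0.11 ± 0.07 in EpH4. Tnfaip3, a brake on NF-kB, rose by 0.37 ± 0.05 in EpH4 (edgeR, adjusted p = 0.000246) and 1.03 ± 0.06 in EpH4-AS (adjusted p = 6.45e-08). Mmp9, a gelatinase, fell in EpH4, at -0.25 ± 0.06 (edgeR, adjusted p = 0.00662), and rose in EpH4-AS by 0.61 ± 0.06 (adjusted p = 1.40e-05). Several of these genes have other regulators besides AP-1, and AP-1 binding was not measured.

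Stress partners of Atf3 around the factor ATF4 split by line. Of 11 tested, 1 rose and 7 fell in EpH4 (median -0.30), while 8 rose and none fell by edgeR in EpH4-AS (median 0.38), with none lower at an unadjusted p under 0.05, by DESeq2 or by limma-trend either. The interaction passed for 11 of 11, against 14.1% of all genes tested. Nupr1, a stress-induced chromatin protein, was at 136 and 151 CPM in untreated EpH4 and 99.3 and 88.0 with PM2.5, and at 31.3 and 31.1 in untreated EpH4-AS and 44.5 and 42.3 with PM2.5. Its log2 fold change was -0.62 ± 0.07 in EpH4 (edgeR, adjusted p = 2.26e-05) and 0.48 ± 0.08 in EpH4-AS (adjusted p = 0.00232). Atf4 itself fell in EpH4, at -0.46 ± 0.06 (edgeR, adjusted p = 0.000147), with 0.13 ± 0.06 in EpH4-AS (adjusted p = 0.231). Ddit4, an inhibitor of mTOR signalling, rose in both, by 0.19 ± 0.05 (edgeR, adjusted p = 0.00986) and 0.61 ± 0.05 (adjusted p = 8.20e-06), and Cebpb rose in EpH4-AS by 0.38 ± 0.05 (adjusted p = 0.000252).

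Among 14 mRNA decay genes, 4 rose and 1 fell in EpH4, and 3 rose and none fell by edgeR in EpH4-AS (1 lower at an unadjusted p under 0.05, 0 by DESeq2 and by limma-trend), with medians of -0.07 and 0.03. Zc3h12a (regnase-1, an RNase for inflammatory mRNAs) was at 23.2 and 21.2 CPM in untreated EpH4-AS and at 67.5 and 87.6 with PM2.5, a log2 fold change of 1.81 ± 0.12 (edgeR, adjusted p = 6.32e-07), and rose in EpH4 by 0.42 ± 0.11 (adjusted p = 0.0111). The paralogs of Zfp36 differed from it and from each other. Zfp36l1 rose in both lines, by 0.34 ± 0.07 in EpH4 (edgeR, adjusted p = 0.00244) and 0.46 ± 0.07 in EpH4-AS (adjusted p = 0.000515). Zfp36l2 rose in EpH4 by 0.24 ± 0.05 (adjusted p = 0.00346) and gave -0.16 ± 0.06 in EpH4-AS (adjusted p = 0.0907), with an interaction of -0.41 ± 0.08 (edgeR, adjusted p = 0.00362). Pan3, a deadenylase subunit, fell in EpH4, at -0.21 ± 0.05 (edgeR, adjusted p = 0.0103).

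MAP kinases carry growth factor and stress signals to these genes. Of 20 MAP kinase genes, 4 rose and 5 fell in EpH4 and none rose and 2 fell by edgeR in EpH4-AS (2 higher at an unadjusted p under 0.05, 0 by DESeq2 and by limma-trend), with medians of -0.00 and 0.07. Map2k3 rose in EpH4 by 0.41 ± 0.09 (edgeR, adjusted p = 0.00345). The JNK genes Mapk8 and Mapk9 fell there, at -0.29 ± 0.07 (adjusted p = 0.00589) and -0.33 ± 0.06 (adjusted p = 0.000867), and so did Map3k1 at -0.35 ± 0.08 (adjusted p = 0.00437). Of 11 genes around serum response factor (medians 0.01 and -0.01), 2 rose in EpH4, Elk1 by 0.28 ± 0.07 (edgeR, adjusted p = 0.00882) and Elk3 by 0.34 ± 0.08 (adjusted p = 0.0061), and 1 rose in EpH4-AS, Fhl2 by 0.32 ± 0.08 (adjusted p = 0.0163).

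Genes around Myc, whose own level did not pass with PM2.5, were split. Of 12 network partners (medians -0.13 in EpH4 and -0.11 in EpH4-AS), 1 rose and 4 fell in EpH4, and none passed by edgeR in EpH4-AS. There 1 was higher and 3 lower at an unadjusted p under 0.05, DESeq2 called 0 and limma-trend 1, and 1 rose and 3 fell with only the 4 EpH4-AS libraries in the fit. Mxi1, Mnt and Mga fell in EpH4, at -0.40 ± 0.06 (edgeR, adjusted p = 0.000262), -0.34 ± 0.06 (adjusted p = 0.000693) and -0.29 ± 0.07 (adjusted p = 0.00457). Mxd3 rose there by 1.02 ± 0.20 (edgeR, adjusted p = 0.00213), at a low level of 2.41 CPM untreated and 4.92 with PM2.5. Of 20 MYC targets (medians -0.01 and 0.04), 4 rose and 3 fell in EpH4 and 3 rose and 1 fell in EpH4-AS. Npm1 (nucleophosmin) fell in EpH4, at -0.44 ± 0.07 (edgeR, adjusted p = 0.000285), and rose in EpH4-AS by 0.33 ± 0.07 (adjusted p = 0.00736). Srm (spermidine synthase) fell in both, at -0.21 ± 0.05 (edgeR, adjusted p = 0.0103) and -0.20 ± 0.05 (adjusted p = 0.0225). Polr1b rose in EpH4 by 0.40 ± 0.07 (edgeR, adjusted p = 0.00141) and Ldha fell there, at -0.18 ± 0.06 (adjusted p = 0.0261).

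The list counts in EpH4-AS moved with scaling and when 1 library was left out. With library totals 9 of the other immediate early genes rose and 4 fell, 2 of the mRNA decay genes rose and 1 fell, and 2 of the MYC targets rose and 2 fell. Without EpH4-AS untreated replicate 1 and replicate 2 in turn, the number that rose was 6 and 5 of the other immediate early genes, 8 and 7 of the AP-1 targets, and 4 and 5 of the ATF4 partners. Without PM2.5 replicate 2 it was 6, 9 and 6. The 4 MYC target calls in EpH4-AS fell to 0 without either untreated replicate or PM2.5 replicate 2. In EpH4 the MAP kinase counts fell to none up and 2 down without PM2.5 replicate 2. Mitochondrially encoded genes took a larger share of counts in EpH4 with PM2.5 than without, and with them left out the calls among the 10 genes numbered 2 in EpH4 and 7 in EpH4-AS.

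**Figure D5:**
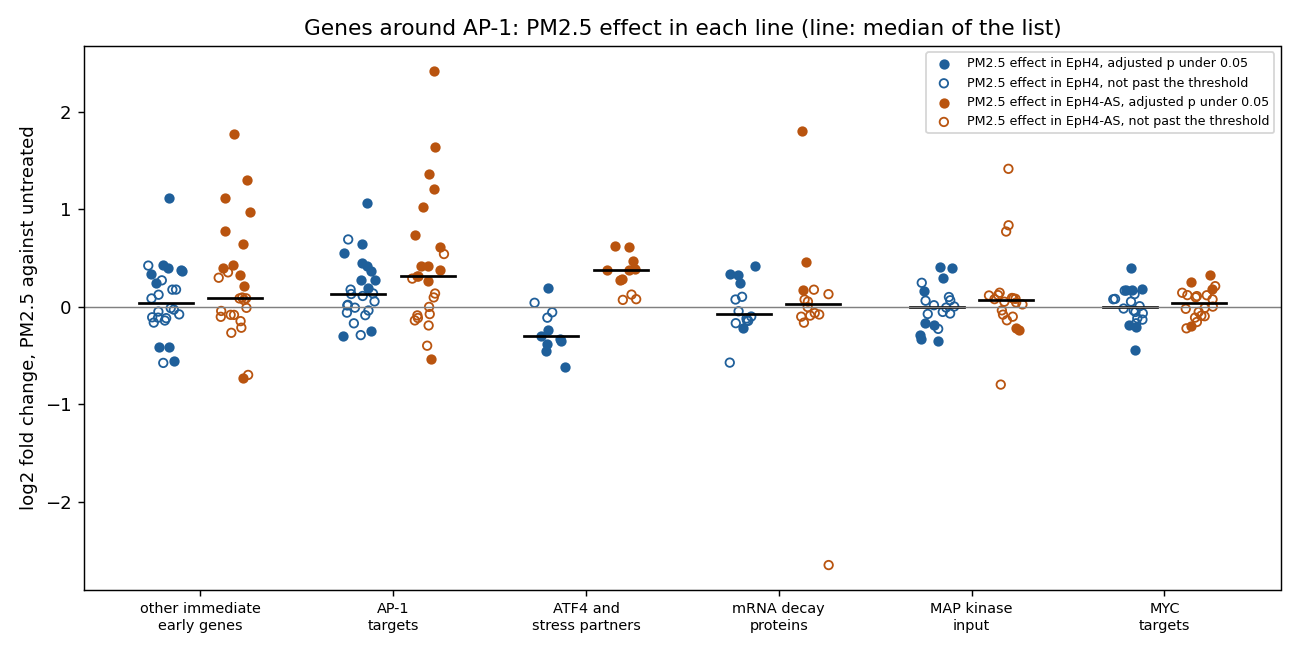
PM2.5 effect (y axis, log2 fold change against untreated) on each tested gene of 6 lists around AP-1, with EpH4 in blue and EpH4-AS in orange; filled points passed the adjusted p threshold of 0.05 and black lines are list medians. The ATF4 partners lie mainly below 0 in EpH4 (median -0.30) and above it in EpH4-AS (median 0.38).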

How the data were processed

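Stranded polyadenylated RNA libraries were sequenced from 8 spheroid samples, 2 in each of 4 groups taken from the labels. The authors deposited raw whole-number counts per gene, RPKM values and, per library, reads over the whole gene. The genome build was GRCm39, per the submitters' processing notes. Which aligner, counter and annotation they used was not given in the sources used here. The 10 genes and the gene lists were chosen with earlier results of these data known, so no list count is independent support. Of each other list, up to 4 genes are named: those with the smallest adjusted p over the PM2.5 effect in the 2 lines, among genes called in either.

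Counts were fitted with edgeR 4.0.16 in R 4.3.3 as one model of 4 groups over all 8 libraries (filterByExpr, trimmed mean of M values, quasi-likelihood F test, two-sided, Benjamini-Hochberg over 13716 genes, threshold 0.05, residual df of 4). The genes kept hold 99.96% of counts. Standard errors come from the fold change and the F statistic. The fit was tested on simulated data with 1 spread for all genes and groups, unlike the data here. No support is drawn from that test. CPM values are scaled by the same factors and compare 1 gene across libraries, and RPKM compares genes. The share outside exons is gene reads minus counts, over gene reads. Alternatives were DESeq2 1.42.0, its size factors, library totals, other filters, a replicate block, limma 3.58.1 trend on log2(RPKM + 1), only the libraries compared, each library left out and, chosen after seeing the data, no mitochondrially encoded genes and a crossed block. Where 1 library of a group was left out, the lone one was taken to vary like the other groups. Replicates of each group differed by more than sampling noise, and unequally between lines. The chi-square between the 2 libraries of a group was set over its degrees of freedom. It gave 9.29 and 8.47 in untreated and exposed EpH4, and 1.47 and 2.93 in the same EpH4-AS groups. The model shares 1 spread per gene over all 4 groups. What this inequality adds to the calls in each line was not tested. In the list figure, points are spread sideways at random.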

Additional observations from a re-analysis of the deposited data

Results flagged for a closer look

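The PM2.5 effect differed between the lines, by the interaction term of the edgeR model, for 5 of the 10 genes. The differences, as the effect in EpH4-AS minus that in EpH4 on the log2 scale, were 0.41 for Fosl1, -0.51 for Fosl2, 0.42 for Junb, -0.96 for Egr1 and 0.68 for Zfp36. For Fosl1 both lines rose and EpH4-AS by more, and for Fosl2, Junb and Zfp36 the effect passed only in EpH4-AS. For Egr1 the exposed libraries were higher in EpH4 and lower in EpH4-AS, and neither change passed alone.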

How the results depend on the processing

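Set against the alternatives, values of single genes kept direction and side of the threshold 624 times, lost the call 38 times, gained it 9 times and changed sign 17 times. Of the last, the untreated line difference of Jun was 0.00172 with library totals and 0.15 with limma-trend, that of Fosl1 0.00352 and of Junb 0.066 with limma-trend, the Atf3 interaction 0.42 with limma-trend, and Myc in EpH4-AS 0.00817 without mitochondrially encoded genes. The cause was not tested. Leaving out 1 library, PM2.5 effects spanned -0.052 to 0.10 for Jun and -0.023 to 0.057 for Myc in EpH4, and -0.24 to 0.21 for Fos and -0.043 to 0.060 for Myc in EpH4-AS. Untreated line differences spanned -0.13 to 0.035 for Jun and -0.14 to 0.31 for Fos, and the Myc interaction -0.065 to 0.050. In EpH4, calls over all genes numbered 2330 with DESeq2 against 3726, and among the 10 genes 1 with DESeq2, 1 with limma-trend and 0 with only the 4 libraries. In EpH4-AS, 2995 genes passed with only the 4 libraries against 1529.

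Leaving out 1 library gave 2145 to 3987 calls over all genes and 0 to 2 among the 10 in EpH4, 363 to 695 and 4 to 6 in EpH4-AS, and 875 to 2621 and 3 to 5 for the interaction. Between lines it gave 11892 to 12090 and 6 to 8 untreated, and 11837 to 12038 and 8 to 10 with PM2.5. Each of the 4 EpH4-AS libraries, left out, cut the EpH4-AS count by over 1.5 times.

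The labels number the replicates without saying that a number marks a shared culture. Deviations of same-numbered libraries correlated at -0.10 between the EpH4 groups and 0.06 between the EpH4-AS groups. A replicate block gave 1 call among the 10 genes in EpH4, losing Fos, and 7 in EpH4-AS, with 3258 and 1252 over all genes. The crossed pairing in EpH4 gave 4416 calls over all genes and 2 among the 10. Fos, Egr1 and Atf3 in EpH4 are limited by few counts, with 159 or fewer per library, although the EpH4 libraries were the deeper ones.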
